A study of Mus musculus with 37 samples.

Results

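The genes described here are 10 genes that mark inhibitory neurons: Gad1, Gad2, Slc32a1, Pvalb, Sst, Vip, Npy, Reln, Lhx6 and Dlx1. They were taken by name, through the GENCODE M21 annotation, from the 55536 genes of the cortex count table. No rule on their values was applied, but the genes were chosen with earlier results of these data known. All 10 were found and all 10 passed the filter on low counts. RNA was sequenced from brain cortex of mice aged 10 months, in a study that asks what TMEM106B deficiency and the Q331K change in TDP-43 do to gene expression. The genotype labels were WT in 5 libraries, TDP-43Q331K in 6, TMEM106B-/- in 5 and TMEM106B-/-TDP-43Q331K in 5. The name combined genotype stands for TMEM106B-/-TDP-43Q331K below. TMEM106B is a lysosomal membrane protein and TDP-43 an RNA-binding protein, and the series title calls the TDP-43Q331K mice a knock-in. The labels give no treatment, sex or strain, do not describe the TMEM106B-/- allele, and leave it unsaid whether every library had its own animal.

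Inhibitory neurons of the cortex release GABA. The enzymes GAD67 (Gad1) and GAD65 (Gad2) make it from glutamate, and the vesicular transporter VGAT (Slc32a1) loads it into synaptic vesicles. Cortical interneurons fall into classes named after a protein or peptide they contain. Parvalbumin (Pvalb), a calcium buffer, marks fast-spiking cells that contact the cell body and axon of their targets, somatostatin (Sst) marks cells that contact distal dendrites, and vasoactive intestinal peptide (Vip) marks cells that mostly contact other interneurons. Neuropeptide Y (Npy) is made by neurogliaform cells and by a part of the somatostatin cells. Reelin (Reln) is a large secreted glycoprotein that guides layering in development and is made in the adult cortex by neurogliaform and other interneurons. Dlx1 and Lhx6 are homeobox transcription factors, Dlx1 acting early in all forebrain GABA neurons and Lhx6 in the parvalbumin and somatostatin lineages.

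The promoters of a pair of peptide genes and of Reln are shown because they differ in the sequences before the RefSeq start site. RefSeq promoters (GRCm38.p6) were matched for all 10 genes, and each line gives bases on the gene's own strand, 5′ to 3′. The Vip and Reln lines hold the 100 bases before the RefSeq start, and the Sst line holds bases -59 to -30 from it. GENCODE M21 places the Sst start further upstream, so the Sst line lies within the GENCODE gene. The capitals mark TGACGTCA, the full cAMP response element, in Sst (chr16:23890874-23890903, minus strand). In Vip (chr10:5639118-5639217, plus strand) they mark TGACG, its shorter form, and TATAAA, the TATA box. The Reln window (chr5:22344706-22344805, minus strand) holds neither and has no capitals.
Sst: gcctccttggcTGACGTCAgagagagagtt
Vip: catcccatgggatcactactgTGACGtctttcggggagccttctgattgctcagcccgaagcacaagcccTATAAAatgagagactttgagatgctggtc
Reln: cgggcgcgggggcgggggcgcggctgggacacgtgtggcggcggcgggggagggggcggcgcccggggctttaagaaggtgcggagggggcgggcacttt
The motifs were searched on both strands in the 250 bases before each RefSeq start site. TGACGTCA was in 1.55% of all 32851 mouse promoters and, among these genes, in Sst alone. TGACG, which lies within TGACGTCA, was in 17.8% of all promoters and in those of Gad2, Sst and Vip. TATAAA was in 12.4% of all promoters and in those of Gad1 and Vip. The 250 bases before the Reln start were 80.0% G or C, against 38.4% for Vip and 47.2% for Sst. These matches describe the letters only, and no binding was measured.

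The cortex libraries held 28.8 to 46.3 M counts. Levels below are counts per 1 M after TMM scaling (CPM), and levels compared between genes are CPM per kilobase of exon (RPKM). Tmem106b RNA was not lower in the libraries labelled TMEM106B-/- (184.2 ± 6.66 CPM, SD, n = 5) or in the combined genotype (200 ± 13.5 CPM, n = 5) than in WT (188.0 ± 4.69 CPM, n = 5), so genotypes rest on the labels alone. The tissue in the libraries was not the same throughout. The summed level of 4 markers of olfactory bulb projection neurons (Eomes, Tbx21, Cdhr1 and Doc2g) was 2.0 to 3.89 CPM in WT and 2.53 to 4.76 CPM in TDP-43Q331K. It was 37.7 and 26.5 CPM in TMEM106B-/- replicates 1 and 2, and 26.2, 54.8 and 12.3 CPM in replicates 1, 2 and 4 of the combined genotype. The other 5 libraries of those groups held 2.16 to 4.45 CPM. Cdhr1, the most abundant of the 4, was at 9.02 to 37.5 CPM in the 5 libraries with these markers and at 1.208 to 3.895 CPM in the other 16. Eomes was at 0 in 2 of all 21 libraries and at most 0.161 CPM in WT. The olfactory bulb holds many GABA neurons of its own, among them cells with Dlx1, Gad1 and Gad2, and its projection neurons make Reln. All 8 oligodendrocyte markers were called lower than WT in TMEM106B-/- and in the combined genotype (summed level 1042 to 1499 and 1136 to 2543 CPM, against 2943 to 3343 CPM in WT), and their part in the results below was not tested. In a bulk sample, fewer cells of a type and less RNA per cell cannot be told apart.

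**Figure D1:**
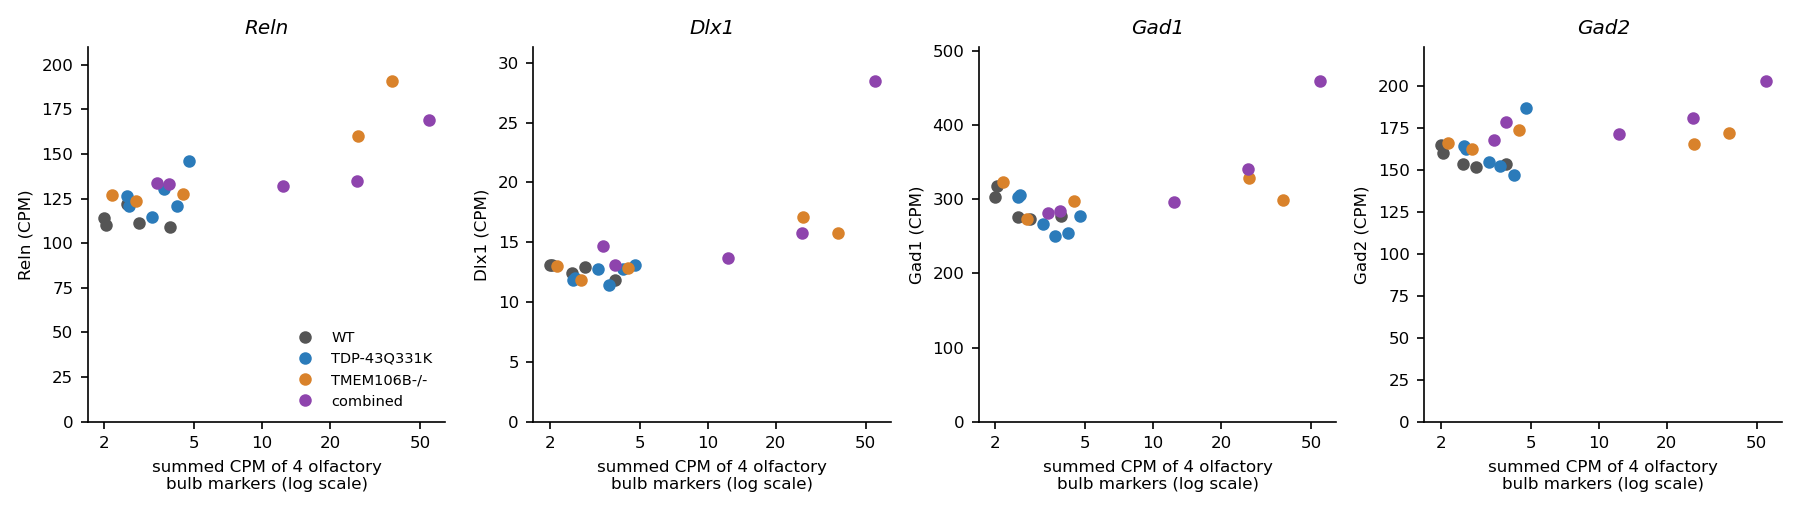
Reln, Dlx1, Gad1 and Gad2 (CPM, vertical axes) against the summed level of 4 olfactory bulb markers (CPM, log axis) in each of 21 cortex libraries, coloured by genotype. The 5 libraries with a sum of at least 10 CPM all belong to the TMEM106B-/- group and the combined genotype, and they include the highest Reln and Dlx1 values.

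The levels per length covered a wide range and kept nearly the same order in every library. Averaged over 21 libraries, Sst led with 151.3 RPKM (SD 23.2) and stood above 99.5% of the genes tested. Npy followed with 75.7 RPKM (SD 11.7), and both peptide genes were above the next gene in 21 of 21 libraries. Gad1 was at 39.2 RPKM (SD 5.71), Pvalb at 34.1 (SD 7.23) and Gad2 at 28.3 (SD 2.27). Those 3 neighbours lay closest together, with Gad1 above Pvalb in 19 libraries and Pvalb above Gad2 in 18. Slc32a1 was at 19.8 RPKM (SD 1.8), Vip at 7.27 (SD 0.821) and Reln at 5.53 (SD 0.861). The transcription factors were lowest, Lhx6 at 3.37 RPKM (SD 0.196) and Dlx1 at 2.59 (SD 0.672), and Dlx1 stood above 46.0% of the genes tested. Reln has 23738 bases of exon, so in CPM, which ignores length, it was close to Sst. The spread between libraries did not follow the level. The highest library exceeded the lowest 2.5-fold for Dlx1, 2.33-fold for Pvalb and 2.01-fold for Sst, but 1.38-fold for Gad2 and 1.24-fold for Lhx6.

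**Figure D2:**
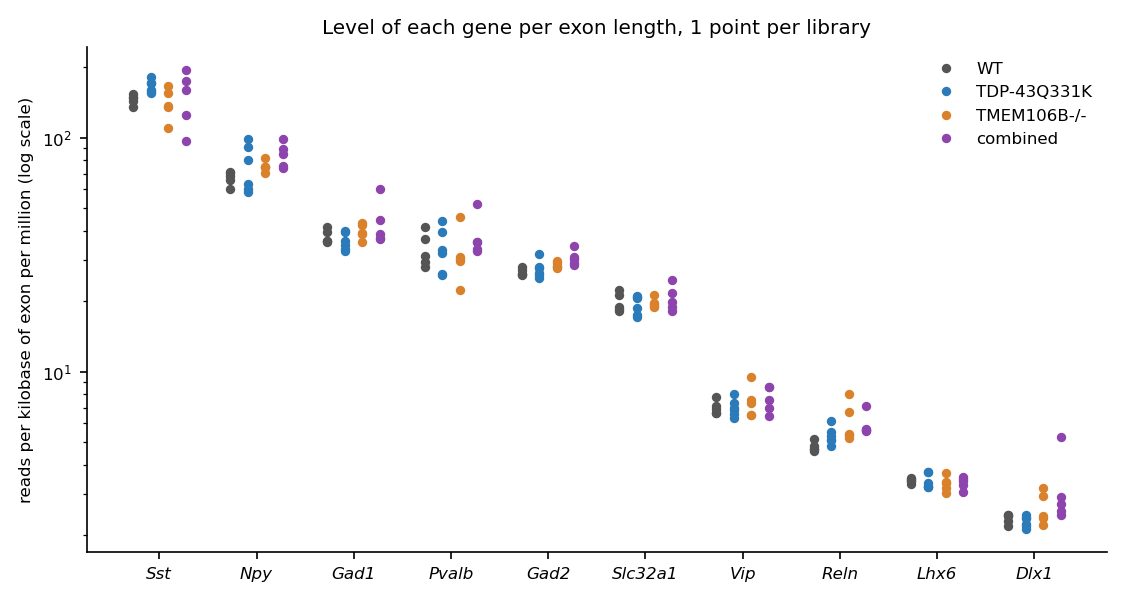
Level of the 10 genes per length (RPKM, log axis) in 21 cortex libraries, each point a library coloured by genotype, in order of the mean level. Sst and Npy stand above all others in every library, and Lhx6 and Dlx1 are lowest.

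On GRCm38, 5 of the 10 genes lie on chromosome 2: Gad2 (22622205 to 22693874, plus strand), Lhx6 (36081953 to 36105408, minus), Gad1 (70553072 to 70602014, plus), Dlx1 (71528113 to 71533981, plus) and Slc32a1 (158610767 to 158615748, plus). Gad1 ends 926 kb before Dlx1 starts. Reln (ENSMUSG00000042453) is the longest, spanning 460.249 kb of chromosome 5 (21884454 to 22344702, minus strand). The shortest is Sst (chromosome 16, 23889573 to 23890958, minus strand). Dlx1 shares 335 exonic bases with the antisense gene Dlx1as, which had 5668 counts over all libraries against 10402 for Dlx1. The strand setting of the counting is not given in the sources used here, so the Dlx1 values are uncertain.

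Of the 10 genes, 1 passed the test between TMEM106B-/- and WT and 1 between the combined genotype and WT, both higher, and none passed in the other contrasts. Reln was 1.287-fold higher in TMEM106B-/- than in WT, and Gad2 was 1.15-fold higher in the combined genotype than in WT. Over all 21248 genes tested, edgeR called 5.16% between TMEM106B-/- and WT, 4.89% between the combined genotype and WT, and 1.4% between the combined genotype and TDP-43Q331K. It called 0% between TDP-43Q331K and WT, 0% between the combined genotype and TMEM106B-/-, and 0% for the interaction, which asks whether TMEM106B loss acts differently in WT and TDP-43Q331K mice. In those last 3 contrasts 1036 (4.88%), 1053 (4.96%) and 972 (4.57%) genes had an unadjusted p under 0.05, and 0 of the 10 genes did. By direction, 2.78% of all genes were called higher and 2.39% lower in TMEM106B-/- than in WT, and 2.53% were called higher and 2.36% lower in the combined genotype than in WT. With 1 call among 10 genes in a contrast, the genes cannot be told from the background. DESeq2 called 10 genes and limma-voom 11 between TDP-43Q331K and WT, and both called 0 in the other contrasts with no edgeR calls, with none of the 10 genes among them.

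The median log2 fold change of the 10 genes was 0.08 between TMEM106B-/- and WT and 0.19 between the combined genotype and WT, beside 0.01 over all genes in both. Between TDP-43Q331K and WT it was 0.00, beside 0.00. Without the 5 libraries that held olfactory bulb markers, a set chosen after seeing the data, the median was 0.07 for TMEM106B-/- and 0.13 for the combined genotype, and none of the 10 genes passed. Contrasts that share the WT libraries are not independent of each other.

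**Figure D3:**
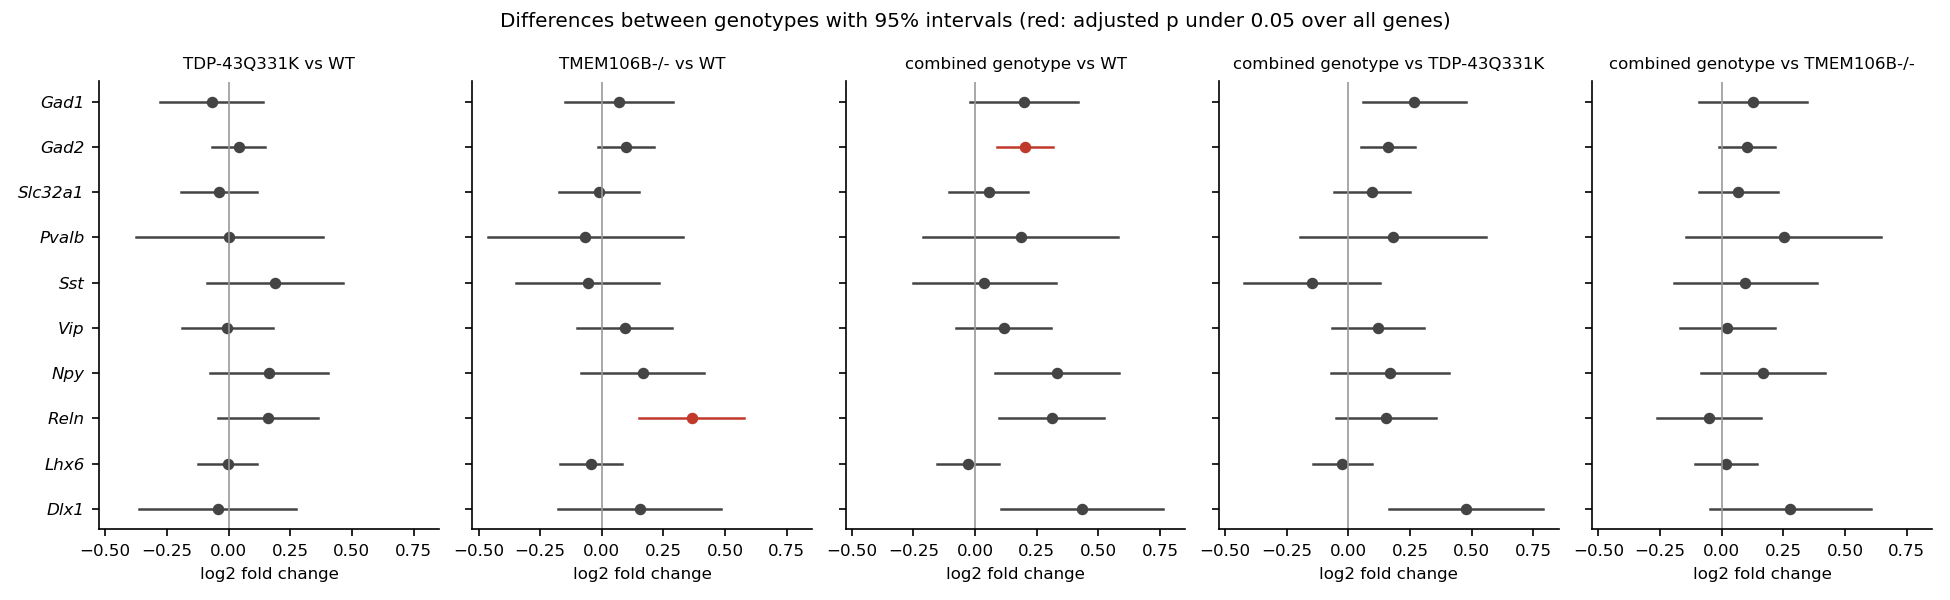
Log2 fold change (points) with its 95% interval (lines) for the 10 genes in the 5 pairwise cortex contrasts, from edgeR, with called genes in red. Reln in TMEM106B-/- against WT and Gad2 in the combined genotype against WT are the called values, and the intervals of Lhx6 span 0 in all 5 contrasts.

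The GABA-synthesising and GABA-loading genes come first by role. Gad2, which makes the vesicle-linked form of the enzyme, was at 160.0, 164.5, 153.4, 151.5 and 153.7 CPM in WT replicates 1 to 5. In the combined genotype it was at 181.0, 202.8, 178.6, 171.0 and 167.5 CPM. All 5 combined libraries lay above all 5 WT libraries, the lowest by a small margin. Values were 162.6 to 173.7 CPM in TMEM106B-/-, and from 147.0 to 186.5 CPM with a median of 158.4 in TDP-43Q331K. The highest of that group was replicate 3, which also held the highest summed level of striatum markers (828.6 CPM, against 471.2 to 581.9 in WT). Gad2 correlated with the mean log2 CPM of the striatum markers at r = 0.51 after subtraction of the genotype means (n = 21). Without the libraries with olfactory markers r was 0.65 (n = 16). For that value the genotype means were still those over all 21 libraries, so it can hold differences between groups. The part of striatal tissue alone in the Gad2 levels was not tested, since the fit with tissue marker scores also held deep-layer and meninges scores. Gad2 was higher in the combined genotype than in WT by 0.20 ± 0.06 on the log2 scale (95% interval 0.09 to 0.32, edgeR adjusted p = 0.0354). Between the combined genotype and TDP-43Q331K the difference was 0.16 ± 0.05 (adjusted p = 0.109), which passed without TDP-43Q331K replicate 3 (0.21, adjusted p = 0.0447). Non-overlapping groups were seen for 5.92% of all genes between the combined genotype and WT, and for 3 of the 10 genes, Gad2, Npy and Reln. It was seen for 2.21% of all genes against TDP-43Q331K and for 0.386% against TMEM106B-/-, and there for 0 of the 10.

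The Gad2 call was lost without any 1 of the 5 WT libraries, and without any 1 of combined replicates 1 to 4 (adjusted p between 0.0514 and 0.0974). Without the libraries with olfactory markers the difference was 0.14 (adjusted p = 0.362), and with the olfactory marker score as a covariate, also added after seeing the data, it was 0.15 (adjusted p = 0.181). It also failed with 1 surrogate variable, with tissue marker scores and when only the compared groups were fitted, and adjusted p ran from 0.017 to 0.362 over all alternatives.

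Gad1, which makes GAD67, did not pass in any contrast. It was at 317.8, 302.9, 275.9, 273.7 and 276.8 CPM in WT, and at 340.0, 459.2, 283.6, 296.6 and 281.6 CPM in the combined genotype. Combined replicate 2 stood far above all others and the groups overlapped. The difference was 0.20 ± 0.11 (adjusted p = 0.282), and 0.06 without that library. TMEM106B-/- libraries held 273.1 to 328.0 CPM, and TDP-43Q331K libraries 249.7 to 305.9 CPM with a median of 271.7, both overlapping WT.

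Slc32a1, the vesicular GABA transporter, was at 62.3, 59.6, 52.9, 51.9 and 50.6 CPM in WT and at 60.4, 68.7, 50.7, 53.0 and 55.4 CPM in the combined genotype. Combined replicate 2 was again the highest, and the rest of the group lay within the WT range. It was at 52.8 to 59.5 CPM in TMEM106B-/- and at 47.8 to 58.9 CPM in TDP-43Q331K. Its difference between the combined genotype and WT was 0.06 ± 0.08 on the log2 scale.

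**Figure D4:**
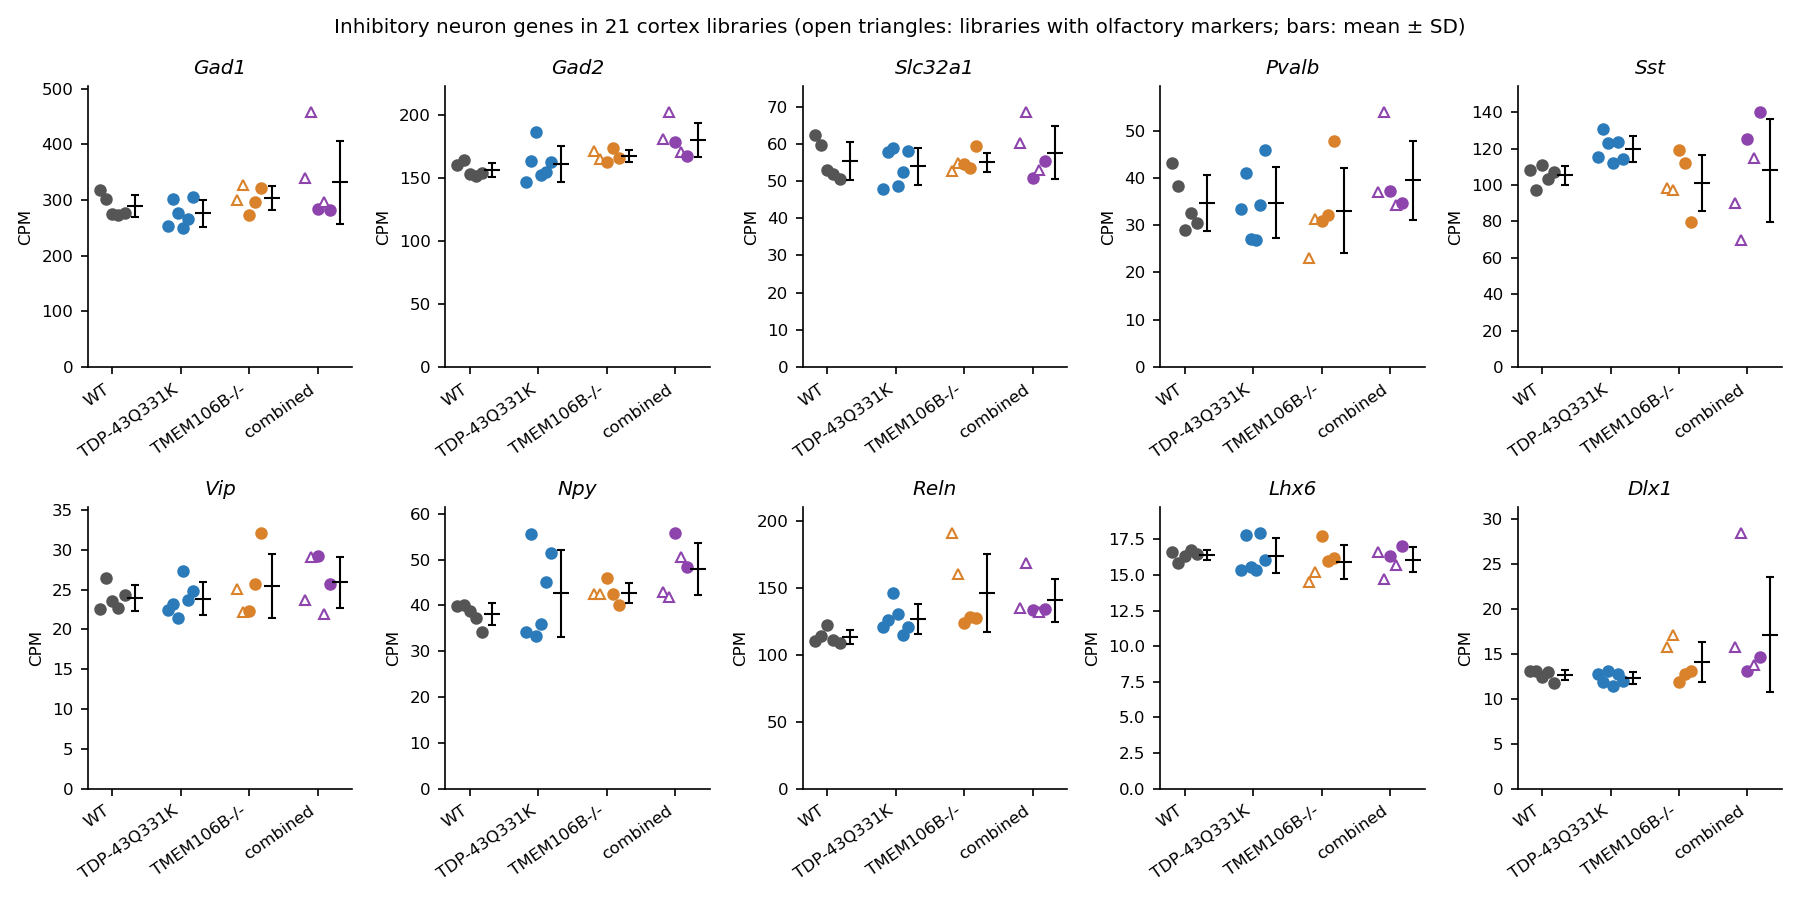
CPM of each of the 10 genes in every cortex library by genotype, with the group mean as a dash and its SD as the error bar. Open triangles are the 5 libraries with olfactory markers and filled circles the others. Replicate 2 of the combined genotype is the highest library for Gad1, Gad2, Slc32a1, Pvalb and Dlx1, and the lowest for Sst.

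Reln, the secreted layering protein, was at 110.4, 114.0, 121.9, 111.3 and 109.0 CPM in WT. In TMEM106B-/- it was at 190.8, 159.9, 123.5, 127.8 and 127.0 CPM. All 5 TMEM106B-/- libraries lay above all 5 WT libraries, but replicate 3 only just, and replicates 1 and 2 stood far above the rest. Replicates 1 and 2 are those that held the olfactory bulb markers. Reln was higher by 0.36 ± 0.10 on the log2 scale (95% interval 0.15 to 0.58, edgeR adjusted p = 0.0409). Without the libraries with olfactory markers the difference was 0.15 (adjusted p = 0.241), and with the olfactory score as a covariate 0.20 (adjusted p = 0.131). Reln was the only one of the 10 genes whose TMEM106B-/- and WT libraries did not overlap, as was the case for 5.89% of all genes.

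That call was also lost without TMEM106B-/- replicate 1 (0.25, adjusted p = 0.11) or replicate 2 (0.33, adjusted p = 0.105), and without any 1 WT library (adjusted p between 0.0582 and 0.0912). Leaving out TDP-43Q331K replicates 1, 2 or 6 or combined replicates 1, 3 or 4 brought it to adjusted p values between 0.05 and 0.0519. It was lost with no filter, in a fit of the compared groups alone, with 1 surrogate variable and with tissue marker scores. It held under 12 of 32 alternatives, and adjusted p ran from 0.00932 to 0.364.

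In the combined genotype Reln was at 134.7, 168.8, 133.4, 132.0 and 133.8 CPM. All 5 libraries lay above WT, 4 of them close together and replicate 2 far above. The difference from WT was 0.31 ± 0.10 (edgeR adjusted p = 0.081), and 0.23 (adjusted p = 0.126) without the libraries with olfactory markers, where replicates 3 and 5 remained. It passed with DESeq2 (adjusted p = 0.0387), in a fit of the compared groups alone (adjusted p = 0.0263) and without TMEM106B-/- replicate 1 (adjusted p = 0.0291). In TDP-43Q331K it ran from 114.5 to 146.3 CPM with a median of 123.6, which overlapped WT (0.16 ± 0.10, adjusted p = 1).

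Of the transcription factors, Dlx1 differed most between libraries. It was at 13.1, 13.1, 12.4, 13 and 11.8 CPM in WT and at 15.7, 28.5, 13.1, 13.7 and 14.7 CPM in the combined genotype. TMEM106B-/- libraries were at 15.8, 17.1, 11.9, 12.8 and 13 CPM. The highest values, in combined replicates 1 and 2 and TMEM106B-/- replicates 1 and 2, were in libraries with olfactory markers. Against WT the combined genotype differed by 0.43 ± 0.16 (adjusted p = 0.115). Against TDP-43Q331K, at 11.4 to 13.1 CPM, it differed by 0.48 ± 0.15 (adjusted p = 0.105), which passed with DESeq2 (0.47, adjusted p = 0.0407). Without the libraries with olfactory markers these differences were 0.12 and 0.17.

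Lhx6, of the parvalbumin and somatostatin lineages, was the steadiest of the 10 genes. It was at 16.6, 15.9, 16.4, 16.8 and 16.5 CPM in WT, and its mean was 16.4 CPM in TDP-43Q331K, 15.9 CPM in TMEM106B-/- and 16.1 CPM for the combined genotype. The 95% intervals of its log2 differences in the 5 pairwise contrasts all lay between -0.17 and 0.14, which bounds the size of a difference that these libraries could have hidden.

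Among the peptide genes, Sst was at 108.0, 97.5, 110.9, 103.1 and 106.9 CPM in WT. In TDP-43Q331K it ran from 112.0 to 130.9 CPM with a median of 119.0, and all 6 libraries lay above all 5 WT libraries. The smallest gap was narrow, and the difference of 0.19 ± 0.13 did not pass (adjusted p = 1). No overlap was seen for 0.852% of all genes in that contrast, and for Sst alone among the 10. In TMEM106B-/- Sst was at 98.1, 97.0, 119.3, 111.8 and 79.5 CPM, and in the combined genotype at 89.8, 69.7, 125.5, 114.9 and 140.3 CPM. The combined genotype held both the lowest and the highest Sst of all libraries, and its mean of 108.0 ± 28.2 CPM (SD, n = 5) was close to that of WT (105.3 ± 5.17 CPM, n = 5).

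Npy was at 39.9, 40.2, 38.8, 37.2 and 34.3 CPM in WT and at 43.0, 41.9, 55.8, 50.6 and 48.4 CPM in the combined genotype. The groups did not overlap, and the highest values came from replicates 3, 4 and 5. The difference was 0.33 ± 0.12 (adjusted p = 0.113), and it was 0.45 (adjusted p = 0.226) without the libraries with olfactory markers and 0.38 without combined replicate 2. It passed when only the compared groups were fitted (adjusted p = 0.0316). Npy was at 40.0 to 46.1 CPM in TMEM106B-/-, and at 33.3 to 55.7 CPM with a median of 40.5 in TDP-43Q331K.

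Vip was at 22.6, 26.5, 23.5, 22.7 and 24.3 CPM in WT and at 23.7, 29.1, 29.2, 21.9 and 25.7 CPM in the combined genotype. It reached its highest level, 32.1 CPM, in TMEM106B-/- replicate 5. All groups overlapped, and the difference between the combined genotype and WT was 0.12 ± 0.09.

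Pvalb, the calcium buffer of fast-spiking cells, was at 43.2, 38.3, 29.1, 32.5 and 30.5 CPM in WT. It was at 23.1, 31.4, 31.0, 32.2 and 47.7 CPM in TMEM106B-/- and at 37.1, 54.0, 37.3, 34.2 and 34.6 CPM in the combined genotype. The WT range lay within that of TMEM106B-/-, and no contrast passed. The call changed with 1 surrogate variable, under which Pvalb was lower in TMEM106B-/- than in WT (-0.38, adjusted p = 0.0431).

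Pvalb, Sst and Vip varied with markers of cortical depth across libraries. The upper-layer list includes Lamp5 and Calb1, which interneurons also make. The ratio of summed upper-layer to deep-layer markers was 1.54 to 2.08 in WT and 1.34 to 2.62 in TDP-43Q331K. It was 1.83 to 5.93 in TMEM106B-/- and 1.96 to 4.48 in the combined genotype. TMEM106B-/- replicate 3 (1.83) and combined replicate 5 (1.96) lay within the WT range, and the other libraries of both groups above it. The layer markers thus differed with genotype as well as between libraries. The ratio was highest in TMEM106B-/- replicate 5 (5.93) and combined replicate 2 (4.48). These 2 libraries had the lowest Sst and the highest Pvalb of all 21. For correlations, each list was scored by the mean log2 CPM of its markers rather than their sum, and each genotype's mean was subtracted. Pvalb correlated with the upper-layer score at r = 0.80 and with the deep-layer score at r = -0.67, and Sst at r = -0.68 and r = 0.60 (n = 21). Vip correlated at r = 0.68 with the upper-layer score and at r = -0.83 with the deep-layer score. Gad1 correlated with the upper-layer score at r = 0.64 (n = 21). All these values come from the same libraries, so they share depth and dissection, and they are given as descriptions. The part of cortical depth in the genotype contrasts was not tested for these genes separately. With deep-layer, striatum and meninges marker scores in the fit, none of the 10 genes passed in any contrast.

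**Figure D5:**
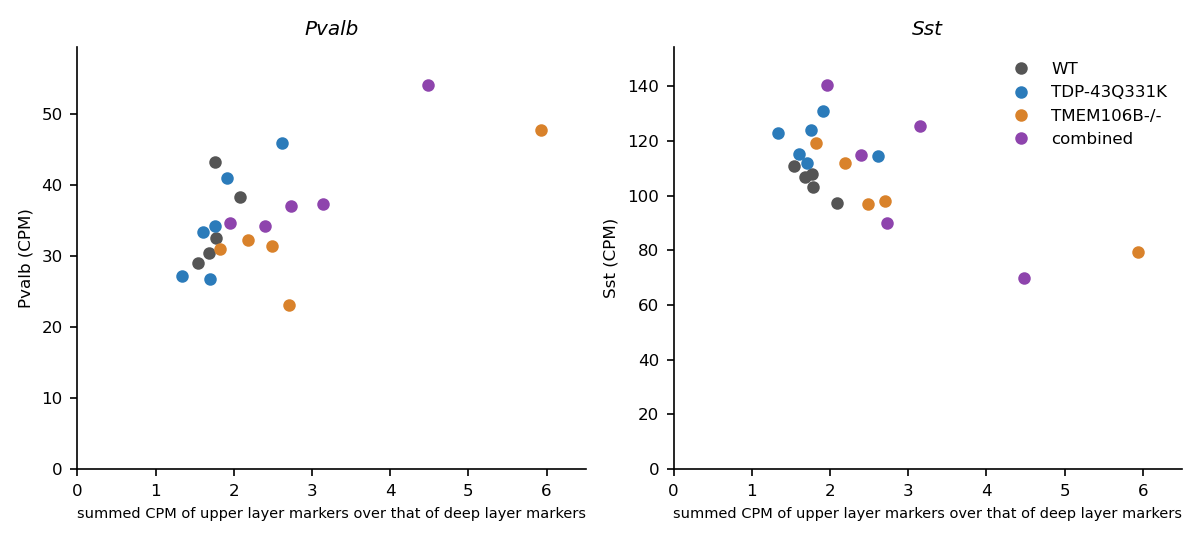
Pvalb and Sst (CPM, vertical axes) against the ratio of summed upper-layer to deep-layer markers (horizontal axis) in each of 21 cortex libraries, coloured by genotype. TMEM106B-/- replicate 5 and combined replicate 2, at the highest ratios, have the lowest Sst and the highest Pvalb.

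The GABA genes varied together within genotypes. Gad1 correlated with Slc32a1 at r = 0.85 and rho = 0.81, and with Gad2 at r = 0.66 and rho = 0.70, over 21 libraries after subtraction of the genotype means. Without the 5 libraries with olfactory markers these r values were 0.84 and 0.53 (n = 16). Gad1 and Sst ran in opposite directions (r = -0.76, rho = -0.57), with r = -0.57 when the 2 libraries farthest from the median were left out. Reln correlated with the olfactory marker score, the mean log2 CPM of those markers, at r = 0.77 and Dlx1 at r = 0.75. Without the libraries with those markers, r was 0.57 for Reln and 0.74 for Dlx1 (n = 16). For every r with libraries left out, the subtracted genotype means were still those over all 21 libraries. Such values can therefore hold differences between groups, and they do not show a correlation within genotypes.

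The genes most like each of the 10 were found among 16709 genes with a mean of at least 1 CPM, by Pearson r over the 21 libraries after subtraction of the genotype means. Pvalb was most like Vamp1 (r = 0.97), a synaptic vesicle protein, and Syt2 (r = 0.95), the fast calcium sensor of vesicle release. Dlx1 was most like Sp9 (r = 0.92) and Sp8 (r = 0.88), zinc finger factors of the forebrain, and Reln like Npr1 (r = 0.84) and Calb2 (r = 0.83), which encodes calretinin. Without the libraries with olfactory markers the values were 0.72 and 0.74 for Sp9 and Sp8, and 0.61 and 0.70 for Npr1 and Calb2 (n = 16). The genotype means were not taken anew for these 16 libraries, so the values can hold differences between groups. Gad1 was most like Mybpc1 (r = 0.92) and Myo16 (r = 0.90), Gad2 like Gm10125 (r = 0.83) and Pcp4l1 (r = 0.80), and Slc32a1 like Chd4 (r = 0.83) and Ndufa1 (r = 0.81). Sst was most like Capn5 (r = 0.91) and Slc7a8 (r = 0.90), Npy like Tada3 (r = 0.85) and Ncstn (r = 0.84), Vip like Tifa (r = 0.88) and Efcab12 (r = 0.81), and Lhx6 like Mta1 (r = 0.88) and Lasp1 (r = 0.82).

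Other genes of inhibitory neurons were read from the same fit, by lists written with earlier results of these data known. Beside the list counts, 2.78% of all genes were called higher and 2.39% lower in TMEM106B-/- than in WT. For the combined genotype the shares were 2.53% and 2.36% against WT, and 0.8% were called higher against TDP-43Q331K. A single call within a list cannot be told from this background. Of 13 tested transcription factors of interneurons, 1 rose and 1 fell between TMEM106B-/- and WT. Nr2f2, a factor of caudal ganglionic interneurons, was higher by 0.56 ± 0.12 (edgeR adjusted p = 0.008), and Prox1, a factor of the same lineage that is also listed with the hippocampus markers, was lower by -0.37 ± 0.08 (adjusted p = 0.00519). Nr2f2 was also higher in the combined genotype than in WT (0.60 ± 0.12, adjusted p = 0.0105). Of 8 markers of neurogliaform and layer 1 cells, 2 rose in TMEM106B-/-, Kit (0.35 ± 0.06, adjusted p = 0.00199), a receptor tyrosine kinase, and Car4 (0.37 ± 0.10), a carbonic anhydrase. In the combined genotype 2 rose against WT, Kit (0.33 ± 0.06) and the chemokine Cxcl14 (0.32 ± 0.08). Kit also rose against TDP-43Q331K (0.41 ± 0.06, adjusted p = 0.00146).

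Of 12 markers of Vip cells and their relatives, 1 rose in TMEM106B-/- and 2 in the combined genotype. Tac2, which encodes neurokinin B, was higher by 0.42 ± 0.11 (adjusted p = 0.0212) and by 0.49 ± 0.11, and Crispld2, a secreted protein, by 0.97 ± 0.22 in the combined genotype. Among 10 markers each of the parvalbumin and somatostatin classes, TMEM106B-/- against WT called Vwa5b1 (0.36) and Nek7 (-0.24) in the first and Calb1 (0.28 ± 0.07, adjusted p = 0.0167), a calcium buffer also listed with the upper-layer markers, in the second. None of these was called in the combined genotype. Of 7 genes of GABA uptake and breakdown, Slc6a13, a GABA transporter also made in the meninges, was the 1 higher in TMEM106B-/- (1.37 ± 0.34, adjusted p = 0.0253) and in the combined genotype (1.28 ± 0.35). Summed meningeal markers, which include Slc6a13 itself, were at 17.4 to 54.5 CPM in WT, 39.0 to 152.6 in TMEM106B-/- and 58.3 to 113.9 in the combined genotype. The part of the meninges in the Slc6a13 result was not tested.

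Among 15 GABA-A receptor subunits, none passed in TMEM106B-/- and 1, Gabra2, was higher in the combined genotype than in WT (0.50 ± 0.12, adjusted p = 0.0206). Of 13 receptors for the peptides and related signals, Sstr1, a somatostatin receptor, was lower there by -0.29 ± 0.08. None of the 9 pan-neuronal genes passed in these contrasts, and their sum stayed between 8018 and 9466 CPM in all libraries. Nr2f2 (0.48, adjusted p = 0.0427) and Tac2 (0.48, adjusted p = 0.0244) were also higher in the combined genotype than in TDP-43Q331K. The median log2 fold change against WT, in TMEM106B-/- and then in the combined genotype, was 0.28 and 0.30 for the neurogliaform markers, 0.22 and 0.25 for the Vip-cell list, and 0.03 and 0.18 for the transcription factors. It was 0.02 and 0.04 for the parvalbumin list, 0.05 and 0.04 for the somatostatin list, and 0.02 and 0.05 for the GABA-A subunits. Over all genes it was 0.01 in both. Without the libraries with olfactory markers, which leaves fewer samples in both genotypes, most of these calls were lost. The neurogliaform median was then 0.28 in TMEM106B-/- and 0.27 in the combined genotype. For the Vip-cell list it was 0.16 and 0.18, and for the transcription factors -0.01 and 0.12. It was 0.09 and -0.05 for the parvalbumin list, 0.02 and 0.04 for the somatostatin list, and 0.01 and 0.05 for the GABA-A subunits. In TMEM106B-/- against WT, 1 of 13 transcription factors (lower) and 1 of 8 neurogliaform markers (higher) were called, and 0 in the Vip-cell, parvalbumin, somatostatin and GABA uptake lists. The calls of Nr2f2, Tac2, Vwa5b1, Nek7, Calb1 and Slc6a13 in that contrast were among those lost. In the combined genotype against WT, 1 of 15 GABA-A subunits was called and 0 in the other lists, so Nr2f2, Kit, Cxcl14, Tac2, Crispld2, Slc6a13 and Sstr1 did not pass there. Against TDP-43Q331K, 0 genes of these lists were called. Over all genes, 352 were called between TMEM106B-/- and WT against 1097 with all libraries, and 124 between the combined genotype and WT against 1038.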

How the data were processed

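Per the labels' protocols, Trizol was used for total RNA, and 700 ng of it went into each directional library. The submitters' processing notes name Trim Galore, cutadapt, FastQC, GRCm38 and mm10. Aligner, counter and strand setting were not given in the sources used here. Raw counts per gene, without normalization, are what the authors deposited. All 55536 identifiers matched GENCODE M21, and 1 cortex column with no sample in the labels was not used.

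The 21 cortex libraries were fitted together by genotype in R 4.3.3 with edgeR 4.0.16 (TMM, filterByExpr with minimum count 10 and minimum total 15, robust quasi-likelihood test, 17 residual degrees of freedom). Tests were two-sided, with Benjamini-Hochberg adjustment over 21248 genes and calls under 0.05. RPKM divides CPM by the GENCODE exon length. Errors on log2 values are SE. Since separate animals are not stated, p-values cover only the spread among these samples, which may be technical. No 2 libraries of a group agreed within sampling noise (chi-square per degree of freedom at least 4.51 over genes with a mean count of at least 50).

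The genes and lists were chosen with earlier results of these data known. The text names all 10 genes, the called genes of the other lists (at most 3 per list, contrast and direction by smallest p), the 2 genes most correlated with each of the 10, defining markers, Tmem106b and Tardbp. Some called genes of the other lists are not reported here. Tardbp was at 157.2 ± 5.44 CPM (SD, n = 5) in WT, beside 177.9 ± 5.78 CPM (n = 6) in TDP-43Q331K.

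Alternatives were RLE size factors, no filter, DESeq2 1.42.0, limma-voom 3.58.1 with sample weights, the compared groups only, 1 surrogate variable (sva 3.50.0), replicate number as a block, tissue marker scores as covariates, and fits without 4 cortices with extreme tissue markers or without each library. Chosen after seeing the data were fits without 5 libraries with at least 10 CPM of olfactory markers and with that score as a covariate. On simulated data with 200 changed genes, 55 to 63.6% of 1.5-fold and 93.9 to 95.9% of 3-fold changes were recovered over 5 comparisons of 21040 genes, and at most 6.1% of calls were false. Both sizes exceed the differences called for Gad2 (1.15-fold) and Reln (1.287-fold), and recovery at those sizes was not simulated. The libraries of a simulated group shared 1 mean per gene, so tissue differences between libraries were not modelled.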

Additional observations from a re-analysis of the deposited data

Results flagged for a closer look

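Replicate 2 of the combined genotype stood apart from the other 4 libraries of its group for 3 of the 10 genes, each time as the highest. Pvalb was at 54.02 CPM there, Reln at 168.8 CPM and Dlx1 at 28.48 CPM, and the gap to the next library was 0.844, 0.926 and 0.829 of the group's whole range, above the limit of Dixon's test for 5 samples. In all 40 groups (10 genes in 4 genotypes) were examined, and chance alone flags about 1 in 20. The same library held the highest summed olfactory markers of all (54.8 CPM) and the highest upper-layer to deep-layer ratio of its group (4.48). The part of either in these values was not tested.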

How the results depend on the processing

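Between TMEM106B-/- and WT 1 of the 10 genes was called, and 0 with no filter, the compared groups only, tissue marker scores, the olfactory libraries left out or the olfactory score. Between the combined genotype and WT 1 was called, 2 with DESeq2 or the compared groups only, and 0 with 1 surrogate variable, tissue marker scores, the olfactory libraries left out or the olfactory score. Between the combined genotype and TDP-43Q331K 0 were called and 1 with DESeq2. Leaving out each library in turn gave 0 to 1, 0 to 2 and 0 to 1 calls in these contrasts. The other contrasts and the interaction stayed at 0 under every alternative run. Fewer samples or genes enter several of these fits, and otherwise the cause was not tested. Over all genes, 1097 calls between TMEM106B-/- and WT ranged from 84 (tissue marker scores) to 1689 (limma-voom), 1038 between the combined genotype and WT from 14 (tissue marker scores) to 1818 (limma-voom), and 298 between the combined genotype and TDP-43Q331K from 18 (olfactory libraries left out) to 1103 (without combined replicate 5). Of 1910 recomputed single-gene values, 1868 kept their side of the threshold, 35 lost a call, 7 gained one and 0 reversed a called direction. Among the 1868, the sign differed in 130 that were not called in either fit.

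The replicate numbers do not pair the libraries. Deviations from the group means correlated at a median r of -0.0175 over 30 pairs with the same number, of which 8 were over 0.1, against 0.009 over 135 other pairs, and 1 of 21 libraries correlated best with its own number. With replicate number as a block, 0 genes were called between TMEM106B-/- and WT (Reln 0.36, adjusted p = 0.0592) and 0 between the combined genotype and WT (Gad2 0.20, adjusted p = 0.0537).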

Other observations

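The ratio of Gad1 to Gad2 per length had a mean of 1.42 ± 0.0613 (SD) over 5 WT libraries, 1.32 ± 0.111 over 6 TDP-43Q331K libraries, 1.39 ± 0.109 over 5 TMEM106B-/- libraries and 1.41 ± 0.204 over 5 libraries of the combined genotype. The ratio of Pvalb to Sst was 0.229 ± 0.0434 in WT and 0.281 ± 0.149 in the combined genotype, and its highest value was 0.537, in a combined library.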
